A study of Homo sapiens with 6 samples.

Results

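PC-3 is an established human prostate cancer cell line, and the cells were left untreated or were incubated with GPNA at 1 mM or BenSer at 10 mM over 48 h, which the labels describe as inhibitors of the amino acid transporter ASCT2. Total RNA was sequenced, and the labels name 2 libraries in each of the 3 groups. The comparison asks how blocking glutamine uptake with either compound alters gene expression. The doses of the compounds differ, and the paper proposes that BenSer also has effects besides those through ASCT2. All groups are one cell line in the same serum-containing medium, at a single time point. Here the levels of 10 genes are described, out of 19491 genes listed. They are FOS, FOSB, FOSL1 and FOSL2 of the Fos family, JUN, JUNB and JUND of the Jun family, and the immediate early genes EGR1, IER2 and IER3, chosen by name and all found in the files.

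AP-1 is a transcription factor built from a Jun protein paired with a Fos protein or with another Jun protein. Many of its subunits are encoded by immediate early genes, which growth factors, serum and stress switch on within minutes through the MAP kinase cascade, without new protein synthesis. Subunits differ in what they do once bound to DNA: c-Fos and c-Jun are strong activators, whereas JUNB, FOSL1 and FOSL2 lack or have weaker activating parts, and FOSL1 is prominent in invasive epithelial tumours.

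The Jun family genes gave the clearest contrast between the groups, with JUN and JUNB differing in opposite directions after BenSer. The 250 bases before the RefSeq start of each Jun gene are therefore shown, 5′ to 3′ on the strand of the gene, in build GRCh38.p14. Capitals mark matches to TGANNTCA, a loose pattern that includes the longer AP-1 and CREB site but also other sequences. The regions are chr1:58784048-58784297 (minus strand) for JUN, chr19:12791236-12791485 (plus strand) for JUNB and chr19:18281623-18281872 (minus strand) for JUND.
JUN: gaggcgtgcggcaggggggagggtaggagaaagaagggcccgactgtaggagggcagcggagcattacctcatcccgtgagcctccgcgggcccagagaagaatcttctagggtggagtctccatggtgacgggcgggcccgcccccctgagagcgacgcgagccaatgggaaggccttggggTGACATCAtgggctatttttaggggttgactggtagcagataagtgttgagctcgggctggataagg
JUNB: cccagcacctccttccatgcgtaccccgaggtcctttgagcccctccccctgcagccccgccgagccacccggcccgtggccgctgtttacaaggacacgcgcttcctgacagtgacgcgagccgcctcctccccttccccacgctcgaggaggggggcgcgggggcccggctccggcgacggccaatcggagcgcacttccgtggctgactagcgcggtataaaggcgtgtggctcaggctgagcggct
JUND: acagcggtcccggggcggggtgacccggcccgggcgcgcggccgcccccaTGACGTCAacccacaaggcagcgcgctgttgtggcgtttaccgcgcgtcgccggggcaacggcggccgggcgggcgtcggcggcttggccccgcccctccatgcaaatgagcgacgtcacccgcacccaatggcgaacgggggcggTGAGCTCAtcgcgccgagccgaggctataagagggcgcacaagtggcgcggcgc
The JUN sequence held 1 match, TGACATCA at bases -67 to -60 from the start. JUND held 2, TGACGTCA at -200 to -193 and TGAGCTCA at -54 to -47, and JUNB held none. Over all 35116 RefSeq promoter windows of this length, 10.1% held TGANNTCA on either strand. The AP-1 pattern TGANTCA is 1 base shorter and is not contained in TGANNTCA. It was in 6.57% of all windows and in none of the 8 member windows available (FOS, FOSB, FOSL2, JUN, JUNB, JUND, EGR1 and IER2). The CArG box, the site bound by the serum response factor SRF, was in 1.16% of all windows and in 1 of the 8, that of EGR1, which held 2. The CCAAT box was found in all 3 Jun windows (3 of the 8, and 32.0% of all windows), and GGGCGG, the site of SP1, in 6 of the 8 (42.6% of all windows). A match is a description of the letters only, and sites outside these 250 bases were not searched in any gene.

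The deposited values were reads per 1000000 reads of the library (CPM), and every one was a whole number of reads over its library total. Library totals were 23077986 to 32178154 reads, of which 51.6% to 52.7% lay on listed genes. Within a group, columns 1 and 2 agreed almost to within the noise of read sampling (chi-square per degree of freedom of 1.05 to 1.06 over 15623 to 16498 genes). A small excess over sampling was present in each group (chi-square p = 1.29e-08 untreated, 3.24e-05 with GPNA and 9.59e-06 with BenSer). Because the excess was small, each pair was counted as 1 sample, and no p-value for a treatment is given from these columns. The tables hold further columns per group that no label names, which were not used here. Epithelial genes (KRT8, KRT18, KRT19, EPCAM, CDH1) were well above the others at 85.6 to 781 CPM, and KLK3 was not listed. None of 6 leukocyte markers was listed, 1 of 5 endothelial markers was (KDR, 2.09 to 4.32 CPM), and 3 of 6 fibroblast markers were (COL1A1, COL3A1 and LUM, 4.68 to 8.01 CPM in sum). In bulk RNA, fewer cells that express a gene and less of its RNA per cell cannot be told apart.

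The 10 genes spanned a wide range of levels. Per kilobase of the canonical transcript, untreated cells had 153 CPM of FOSL1 and 94.8 CPM of IER3, followed by JUNB at 17.8, JUN at 12.5, FOSL2 at 8.19, IER2 at 6.65 and JUND at 5.98 CPM. FOS (0.267), FOSB (0.137) and EGR1 (0.0757 CPM per kilobase) were close to the lower limit, with 11 to 26 reads each in the merged untreated columns. IER2 and JUND had overlapping 95% counting intervals, and so did FOS and FOSB, and FOSB and EGR1, so their order in untreated cells is not resolved. The order was the same after GPNA, apart from IER2 and JUND. After BenSer, FOSL2 (9.56) and JUN (9.37 CPM per kilobase) changed places with overlapping intervals.

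**Figure D1:**
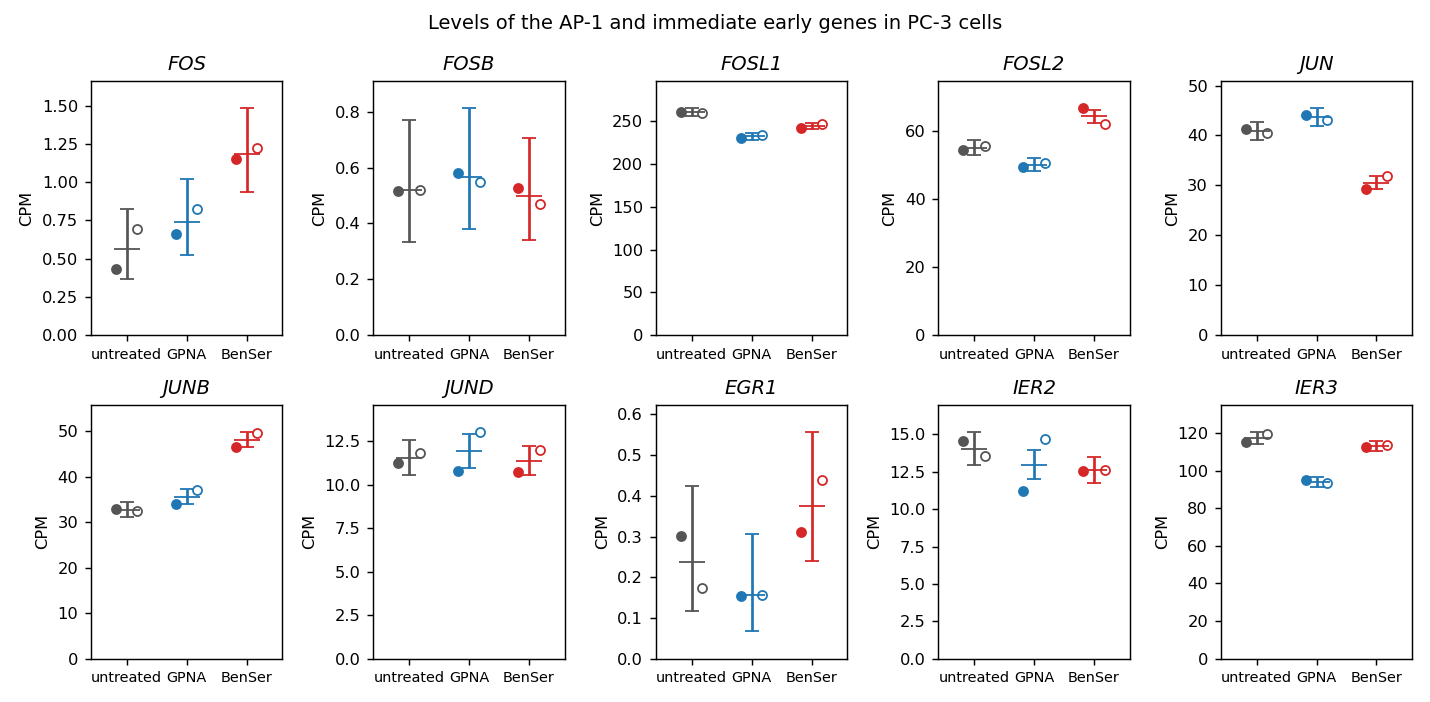
Level of each of the 10 genes in CPM (linear axes from 0) in untreated, GPNA and BenSer cells. Filled and open circles are columns 1 and 2, the horizontal line is their mean, and bars are the 95% exact counting interval of the merged reads. JUN was lowest and JUNB highest in the BenSer columns, and IER3 lowest in the GPNA columns.

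Differences between groups are given as log2(CPM + 1) of the first group minus that of the second, with a 95% exact counting interval on the merged reads that covers counting error only. PCR reads without molecular identifiers are not independent molecules. A gene was called when it differed at least 1.5-fold on this scale, which understates the ratio of low genes. None of the 10 genes was called in any comparison. Over all genes, 0.340% were at least 1.5-fold higher and 0.0637% lower with GPNA than untreated, 1.96% higher and 1.58% lower with BenSer than untreated, and 1.05% higher and 0.813% lower with BenSer than with GPNA. The split for BenSer against untreated was 371 higher and 300 lower, and it became 432 and 214 with TMM scaling and 435 and 212 with median-of-ratios scaling.

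**Figure D2:**
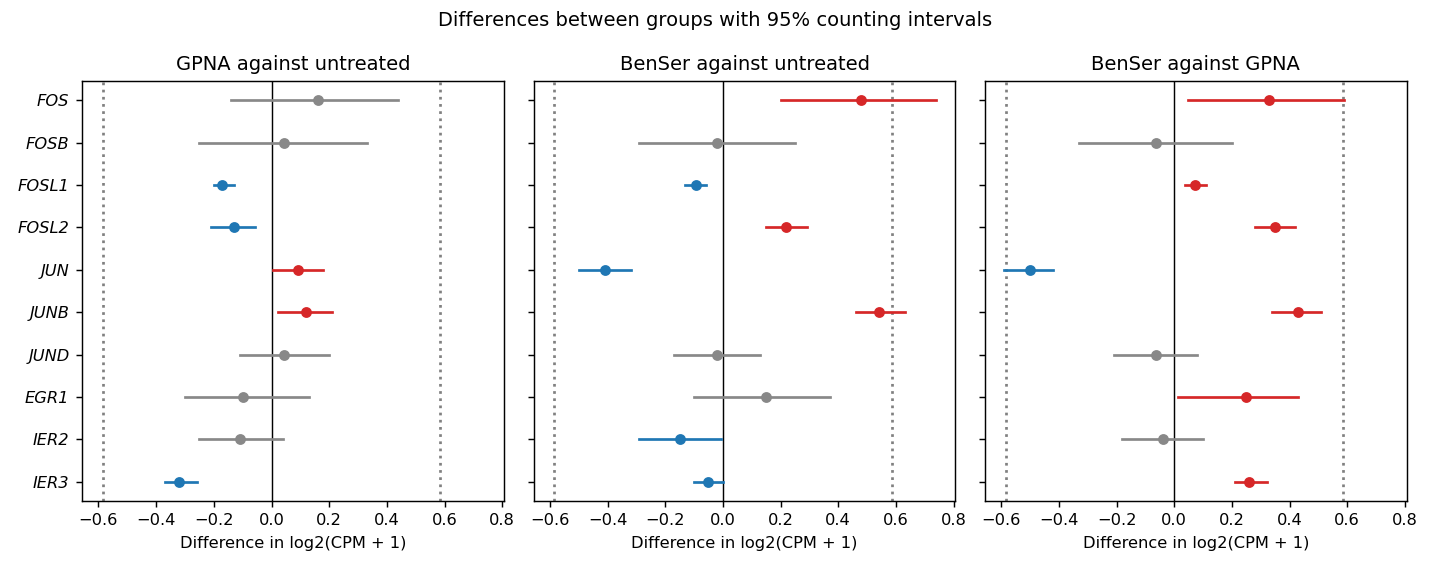
Difference in log2(CPM + 1) of each gene in the 3 comparisons, with 95% counting intervals as lines. Red intervals lie above 0, blue below 0 and grey include 0, and the dotted lines mark 1.5-fold. JUNB after BenSer (0.54) lies just inside the dotted line.

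JUN (ENSG00000177606, GRCh37 chr1:59242517-59249720, minus strand), which encodes c-Jun, was lower after BenSer. Its level was 41.3 and 40.4 CPM in the untreated columns, 44.1 and 43.1 with GPNA, and 29.2 and 31.9 with BenSer. The BenSer columns were below all the others, and the GPNA columns were slightly above the untreated ones. The difference of BenSer from untreated was -0.41 (interval -0.50 to -0.32), a ratio of 0.747. Against GPNA it was -0.50 (-0.59 to -0.42), a ratio of 0.700. GPNA differed from untreated by 0.092 (0.0048 to 0.18), and this interval included 0 without any 1 of 3 libraries in turn (untreated 1 or 2, or GPNA 1), at 0.075 to 0.11.

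JUNB (ENSG00000171223, chr19:12902300-12904129, plus strand), whose product often opposes c-Jun, showed the reverse. The untreated columns had 32.8 and 32.5 CPM, the GPNA columns 33.9 and 37.1 CPM, and the BenSer columns 46.6 and 49.6 CPM. The BenSer columns did not overlap the other 4, and the lower GPNA column was only just above the untreated ones. BenSer differed from untreated by 0.54 (0.46 to 0.63), a ratio of 1.47 that reached the 1.5-fold threshold with either other scaling or without BenSer library 1 (0.59 in each case). The difference of BenSer from GPNA was 0.43 (0.34 to 0.51), and that of GPNA from untreated was 0.12 (0.021 to 0.21), with an interval that included 0 without untreated library 2 (0.11) or GPNA library 2 (0.053). HOOK2, which overlaps JUNB on the opposite strand, had 23.6 CPM untreated, 25.0 with GPNA and 19.2 with BenSer, a BenSer difference of -0.29 (-0.40 to -0.17). The strand setting of the counting was not given in the sources used here.

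JUND (ENSG00000130522, chr19:18390504-18392432, minus strand), the Jun gene that is expressed most steadily in many cells, showed no difference outside its counting interval. Its levels were 11.2 and 11.8 CPM untreated, 10.8 and 13.04 with GPNA, and 10.7 and 11.99 with BenSer, so the groups overlapped. The BenSer difference from untreated was -0.021 (-0.17 to 0.13), so a change inside that interval was not detectable at this depth. BenSer differed from GPNA by -0.065 (-0.21 to 0.080), or by -0.18 (-0.36 to -0.0079) without GPNA library 1. JUND was one of 3 genes whose columns 1 and 2 stood apart, in GPNA (279 against 332 reads, exact binomial p = 0.0231).

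Per kilobase, the 3 Jun genes summed to 36.3 CPM untreated, 39.0 with GPNA and 41.6 with BenSer. JUNB was 49.1% of that sum untreated, 49.8% with GPNA and 63.2% with BenSer. The share of JUN was 34.5%, 34.3% and 22.6% in the same order, and that of JUND 16.4%, 15.9% and 14.2%. In the Fos family the sum was 162 CPM per kilobase untreated, 144 with GPNA and 153 with BenSer, and FOSL1 held 93.3% to 94.7% of it in every group.

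**Figure D3:**
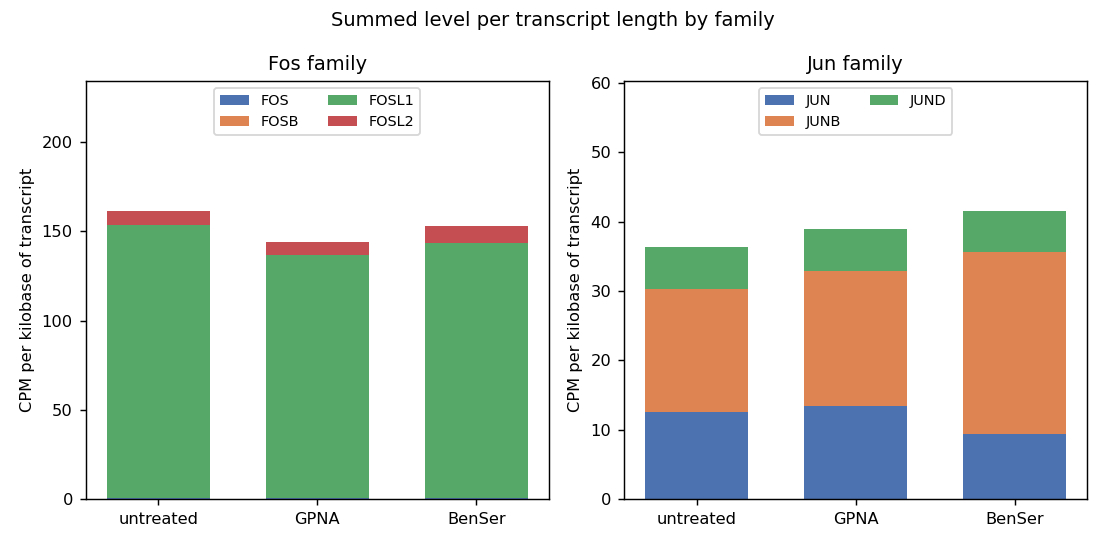
Summed CPM per kilobase of canonical transcript for the Fos family (left) and Jun family (right) in untreated, GPNA and BenSer cells, with each colour one gene. FOSL1 fills most of the left bars, and the JUNB part of the right bar is largest after BenSer (26.3 CPM per kilobase).

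FOSL1 (ENSG00000175592, chr11:65659520-65668044, minus strand), which encodes Fra-1, was the most abundant of the 10 genes. It had 260.7 and 260.1 CPM untreated, 230.0 and 234.3 with GPNA, and 241.7 and 246.7 with BenSer. The untreated columns were above all 4 treated columns, and the GPNA columns were the lowest. The difference was -0.17 (-0.20 to -0.13) for GPNA and -0.093 (-0.13 to -0.058) for BenSer, ratios of 0.891 and 0.938. With TMM scaling these became -0.13 and -0.046.

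FOSL2 (ENSG00000075426, chr2:28615315-28640184, plus strand), which encodes Fra-2, moved apart in the treated groups. Its untreated level was 54.5 and 55.5 CPM, against 49.4 and 50.6 with GPNA and 66.6 and 61.8 with BenSer. No group overlapped another, although the BenSer columns differed from each other (2142 against 1975 reads, exact binomial p = 0.0187). GPNA differed from untreated by -0.13 (-0.21 to -0.056), BenSer from untreated by 0.22 (0.15 to 0.29) and BenSer from GPNA by 0.35 (0.28 to 0.42). In the annotation 2 long noncoding genes overlap this gene, FOSL2-AS1 on the other strand and ENSG00000270640 on the same strand.

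FOS (ENSG00000170345, chr14:75745529-75748933, plus strand) encodes c-Fos and is the classical immediate early gene. It was barely detected, at 0.431 and 0.693 CPM untreated (10 and 16 reads), 0.659 and 0.825 with GPNA (17 and 21 reads), and 1.15 and 1.22 with BenSer (37 and 39 reads). The BenSer columns were the highest, and the GPNA and untreated columns overlapped. The BenSer difference from untreated was 0.48 (0.20 to 0.74), and the ratio of CPM was 2.11 with an interval from 1.34 to 3.43. Without untreated library 1 the interval included 0 (0.37, -0.0089 to 0.70), and without untreated library 2 the gene passed 1.5-fold (0.61), as it did with a pseudocount of 0.5 (0.67) or 0.1 (0.96). GPNA differed from untreated by 0.16 (-0.14 to 0.44) and BenSer from GPNA by 0.33 (0.048 to 0.59). The last of these intervals included 0 without GPNA library 1 (0.26) or BenSer library 2 (0.30).

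FOSB (ENSG00000125740, chr19:45971253-45978437, plus strand), a close relative of FOS, had 0.470 to 0.581 CPM in all 6 columns (12 to 17 reads each). Its differences were 0.044 for GPNA, -0.019 for BenSer and -0.063 between the treatments, and each interval included 0. The BenSer interval ran from -0.29 to 0.25, or from 0.550 to 1.71 as a ratio of CPM. A change of this gene inside that interval was not detectable at this depth. ERCC1, which overlaps it on the other strand, was at 13.6 to 15.3 CPM.

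EGR1 (ENSG00000120738, chr5:137801168-137804992, plus strand), a zinc finger transcription factor driven by SRF, had the lowest level. The columns had 7 and 4 reads untreated (0.301 and 0.173 CPM), 4 and 4 with GPNA (0.155 and 0.157 CPM), and 10 and 14 with BenSer (0.311 and 0.438 CPM). BenSer was highest, by a narrow margin over untreated column 1. Neither treatment differed from untreated outside the interval (-0.098, -0.30 to 0.13 for GPNA, and 0.15, -0.10 to 0.37 for BenSer). As ratios of CPM, these intervals ran from 0.229 to 1.79 for GPNA and from 0.743 to 3.56 for BenSer. BenSer was 0.25 above GPNA (0.013 to 0.43), and this interval included 0 without either GPNA library (0.25) or BenSer library 2 (0.18). With a pseudocount of 0.1 that difference was 0.89, past 1.5-fold.

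IER2 (ENSG00000160888, chr19:13261225-13265725, plus strand), which encodes a nuclear regulator of transcription, was at 14.6 and 13.5 CPM untreated, 11.2 and 14.7 with GPNA, and 12.5 and 12.6 with BenSer. The GPNA columns lay on both sides of all the others (290 against 374 reads, exact binomial p = 0.000677). The GPNA difference was -0.11 (-0.25 to 0.040), and it was 0.062 without GPNA library 1 and -0.30 without GPNA library 2. BenSer differed from untreated by -0.15 (-0.29 to -0.0058), with an interval that included 0 with TMM scaling (-0.10) and without untreated library 1 (-0.096), BenSer library 1 (-0.14) or BenSer library 2 (-0.15). Between the treatments the difference was -0.040 (-0.18 to 0.10), or -0.21 (-0.38 to -0.040) without GPNA library 1.

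IER3 (ENSG00000137331, chr6:30710976-30712325, minus strand), an early response gene whose product influences survival, was lower with GPNA. The levels were 115.0 and 119.6 CPM untreated, 94.9 and 93.3 with GPNA, and 112.7 and 113.6 with BenSer. The GPNA columns were well below the other 4, and the BenSer columns were just under the untreated ones. GPNA differed from untreated by -0.32 (-0.37 to -0.26), a ratio of 0.802, and BenSer from GPNA by 0.26 (0.21 to 0.32). The BenSer difference from untreated was -0.052 (-0.10 to -0.0011), and this interval included 0 with TMM scaling (-0.0050) and without untreated library 2 (-0.023), BenSer library 1 (-0.046) or BenSer library 2 (-0.057). IER2 and IER3 are each overlapped by antisense noncoding genes in the annotation.

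Of the 10 genes, 2 had an interval above 0 (JUN and JUNB) and 3 below 0 (FOSL1, FOSL2 and IER3) with GPNA against untreated, beside 9.78% and 20.1% of all genes. With BenSer, 3 were above (FOS, FOSL2 and JUNB) and 4 below (FOSL1, JUN, IER2 and IER3), beside 18.2% and 25.8%. BenSer against GPNA had 6 above (FOS, FOSL1, FOSL2, JUNB, EGR1 and IER3) and 1 below (JUN), beside 21.2% and 20.7%. The median difference of the 10 genes was -0.027 with GPNA and -0.020 with BenSer, beside -0.028 over all genes in both comparisons. All comparisons to untreated share the same untreated libraries. The columns were also entered as 2 samples in edgeR's quasi-likelihood test, scaled by library totals alone. This test then compares libraries and not treatments. For GPNA it called 3 of the 10 (FOSL1, FOSL2 and IER3, all lower), where it called 17.3% of all genes. For BenSer it called 5 (FOS, FOSL2 and JUNB higher, FOSL1 and JUN lower), where it called 35.9%, and for BenSer against GPNA 5 (FOSL1, FOSL2, JUNB and IER3 higher, JUN lower), where it called 33.4%. Columns 1 and 2 of a group stood apart in 3 of 28 checks of these genes (exact binomial p under 0.05), beside 4.75% of genes untreated, 4.52% with GPNA and 4.45% with BenSer.

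The other transcription factors that pair with Jun or Fos proteins held a larger difference than any of the 10 genes. JDP2, a Jun dimerisation protein that represses AP-1, had a mean of 5.98 CPM untreated, 10.2 with GPNA and 16.2 with BenSer. It differed from untreated by 0.69 (0.50 to 0.87) with GPNA and by 1.30 (1.13 to 1.47) with BenSer, and BenSer was 0.61 above GPNA (0.47 to 0.75). JDP2 was the only gene of the list past 1.5-fold, 1 of 11 in each comparison with untreated. For BenSer against GPNA it was 1 of 10 tested. Over all genes, 0.340% were at least 1.5-fold higher with GPNA, 1.96% with BenSer and 1.05% with BenSer against GPNA. Among listed partners with a mean of at least 1 CPM in either group, MAFK was lowest with GPNA, at -0.12 (-0.37 to 0.14). ATF7 was lowest with BenSer, at -0.14 (-0.37 to 0.081). BATF3, named after its values were seen, was lower than both at under 1 CPM, with 0.324 CPM untreated, 0.117 with GPNA and 0.0782 with BenSer, differences of -0.24 (-0.42 to -0.0037) and -0.30 (-0.44 to -0.081). The median of the 11 was -0.045 with GPNA and 0.16 with BenSer, and 3 and 6 of them had intervals above 0, where 9.78% and 18.2% of all genes did. In each comparison 1 interval lay below 0, that of BATF3, where 20.1% and 25.8% of all genes did.

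Of 36 other immediate early genes, none was past 1.5-fold with GPNA and 2 were higher with BenSer, where 1.96% of all genes were. These were ID1 and ID3, inhibitors of helix-loop-helix factors, with 67.5 and 12.5 CPM untreated and 118 and 21.1 CPM after BenSer (differences of 0.80 and 0.72). NR4A1, an orphan nuclear receptor, was at the lower end, at 4.58 CPM untreated, 3.18 with GPNA and 2.76 with BenSer, with differences of -0.42 (-0.65 to -0.18) and -0.57 (-0.80 to -0.34). IER5L was highest with GPNA, at 0.23 (0.017 to 0.45). With BenSer against GPNA, ID1 (0.84) and ID3 (0.60) were past 1.5-fold higher, where 1.05% of all genes were. EREG, the growth factor epiregulin, was past 1.5-fold lower (0.437 against 1.19 CPM, -0.61), where 0.813% of all genes were. It had few reads, 28 with BenSer and 61 with GPNA. Intervals lay above 0 for 6 and below 0 for 8 of the 36 with GPNA, beside 9.78% and 20.1% of all genes. With BenSer they lay above 0 for 11 and below 0 for 10, beside 18.2% and 25.8%. The medians were 0.052 with GPNA and -0.035 with BenSer.

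Among 22 genes of the MAP kinase cascade, which carries signals to AP-1, none was past 1.5-fold with GPNA. With BenSer 1 of the 22, RPS6KA2, was past 1.5-fold higher, beside 1.96% of all genes. This gene for the kinase RSK3 had 7.79 CPM untreated, 9.27 with GPNA and 13.3 with BenSer, a BenSer difference of 0.70 (0.54 to 0.86) and a GPNA difference of 0.22 (0.044 to 0.40). MAP2K3, an upstream kinase of p38, was lowest in both comparisons, at -0.35 and -0.34. With BenSer against GPNA, RPS6KA2 was highest (0.48) and MAPK12 lowest (-0.17, -0.37 to 0.028). Among the 22, 2 had intervals above 0 and 9 below with GPNA, beside 9.78% and 20.1% of all genes. With BenSer 6 were above and 8 below, beside 18.2% and 25.8%. SRF and its cofactors (6 genes listed) had no gene past 1.5-fold. ELK1, a partner of SRF, was lowest in both, at -0.27 and -0.11, MKL2 was highest with GPNA (0.084, -0.038 to 0.21) and ELK4 was highest with BenSer (0.22). Their medians were -0.062 with GPNA and 0.12 with BenSer, and with BenSer against GPNA they ran from ELK3 at 0.083 (-0.016 to 0.18) to MKL1 at 0.31.

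Feedback inhibitors of the MAP kinases are themselves induced by the cascade, and 15 were listed. None was past 1.5-fold with GPNA, and with BenSer 1 of the 15 was higher, beside 1.96% of all genes. This was DUSP10, a phosphatase for JNK and p38, at 9.66 CPM untreated and 15.1 with BenSer (0.60, 0.45 to 0.75). DUSP5, a nuclear phosphatase for ERK, was lowest, at 39.5 CPM untreated and 26.7 with BenSer (-0.55, -0.64 to -0.46), and GPNA cells had 40.4 CPM. With GPNA, the range ran from DUSP7 at -0.45 (-0.56 to -0.33) to DUSP6, the cytoplasmic ERK phosphatase, at 0.27 (0.23 to 0.32). BenSer against GPNA gave 0.43 for DUSP10 and -0.58 for DUSP5. The medians were -0.070 with GPNA and -0.015 with BenSer. By interval, 3 were above and 4 below 0 with GPNA, beside 9.78% and 20.1% of all genes. With BenSer 5 were above and 6 below, beside 18.2% and 25.8%.

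Genes known as AP-1 targets differed in both directions, with 16 of the list present. MMP1, a collagenase whose promoter holds a classical AP-1 site, had 3.37 CPM untreated, 7.06 with GPNA and 7.89 with BenSer, differences of 0.88 (0.66 to 1.11) and 1.02 (0.81 to 1.24). TIMP1, an inhibitor of such proteases, was past 1.5-fold higher with BenSer (120 CPM untreated and 208 with BenSer, 0.79), and was 0.70 above GPNA. HMGA1, a chromatin protein, was lowest of the list in both comparisons with untreated, at -0.30 with GPNA and -0.41 (-0.44 to -0.39) with BenSer. With BenSer against GPNA the lowest was LIF, a cytokine, at -0.54 (-0.61 to -0.46). In all, 1 of the 16 was past 1.5-fold higher with GPNA and 2 with BenSer, beside 0.340% and 1.96% of all genes. The medians were 0.027 with GPNA and 0.016 with BenSer.

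**Figure D4:**
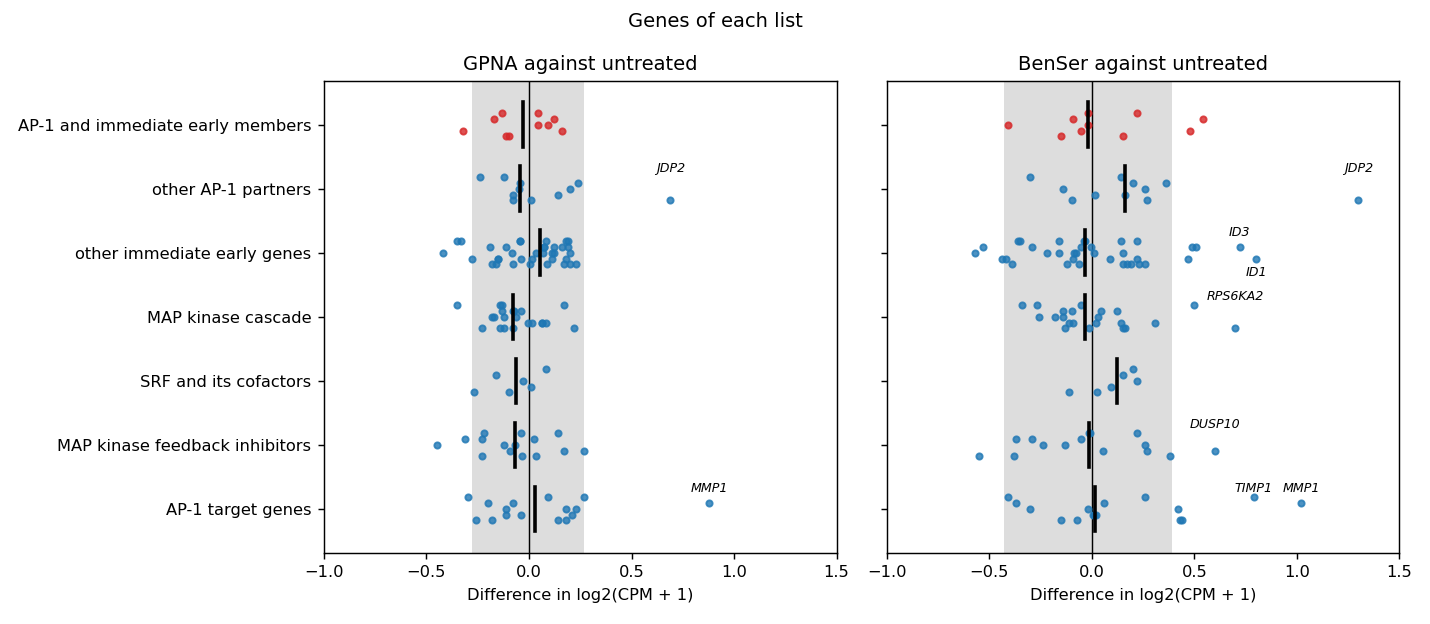
Difference in log2(CPM + 1) from untreated for each gene of 7 lists, with GPNA (left) and BenSer (right). Each point is a gene (red for the 10 members), thick bars are list medians, the grey band spans the 5th to 95th percentile of all genes, and genes past 1.5-fold are named. JDP2 lies farthest to the right with BenSer (1.30).

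The genes whose pattern over the 3 groups was nearest to that of JUNB, by Euclidean distance of the 2 differences from untreated among genes with a mean of at least 10 CPM, were PXK, RNF19B and CPD. Their distances were 0.0060, 0.013 and 0.015, and their BenSer differences were 0.55, 0.55 and 0.56. The points share the untreated libraries, and the likeness is a description of 3 groups.

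Other transcripts also separated the groups. MALAT1, a nuclear noncoding RNA, had a mean of 2627 CPM untreated, 3225 with GPNA and 5401 with BenSer, and NEAT1 had 171, 241 and 311 CPM. RN7SK had 14435, 16841 and 18566 CPM. Their order matches that of JUNB, FOS and JDP2, and their part in these results was not tested. The prostate and epithelial list, which also holds VIM and CD44, differed in both directions with BenSer. By interval, 3 of its 9 listed genes lay above 0 and 3 below, beside 18.2% and 25.8% of all genes. CDH1 was highest (87.3 CPM untreated and 123 with BenSer) and VIM lowest (187 and 144 CPM). KRT19 was higher (0.22), KRT18 (-0.24) and KRT8 (-0.072) were lower, and the intervals of EPCAM (-0.041 to 0.069) and CD44 (-0.011 to 0.056) included 0. The list summed to 1687 to 1784 CPM in every column.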

How the data were processed

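RNA of PC-3 cells was measured in 6 labelled samples, 2 in each of 3 groups. According to the methods, the authors used a stranded total RNA kit, paired-end sequencing, TopHat2 and hg19/GRCh37.p13, compared 4 replicates per group with exact tests, and took a gene as expressed from 5 reads in any group. The submitters' processing notes also name Bowtie2, HTSeq 0.6.2p2 and DESeq. The authors deposited 2 tables, whose value columns hold CPM (named as counts), and columns of their own comparisons (log2 fold changes, average log2 CPM, p-values and false discovery rates), which were not used. Columns 1 and 2 of each group match a label by number and group, and the other 6 value columns, which would bring each group to 4, match no label and were not used.

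Reads were recovered from the deposited CPM, with 100% of values whole within 0.01 reads. The 2 columns of a group thus hold less replication than the authors had. No treatment was tested on them, since columns 1 and 2 agreed almost to within sampling noise (over genes with 20 or more reads) and were counted as 1 sample. Mean CPM was compared as log2(CPM + 1), where the mean of at least 1 group reached 5 reads, with a 1.5-fold threshold. Intervals at 95% are exact (Clopper-Pearson, conditional on the summed reads). They cover counting error only. The fold rule was tested on simulated data. Alternatives were edgeR 4.0.16 and limma 3.58.1 in R 4.3.3, other pseudocounts, filters, scalings and thresholds, and leaving out each library.

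The 10 members, the other lists and the rules were chosen with earlier results of these data known. The lists come from general knowledge, and 3 of their genes are not reported here. From each list, the genes past 1.5-fold (at most 4) and the highest and lowest with a mean of at least 1 CPM were named. All members and markers were also named, and the 3 genes nearest to the member that differed most after BenSer. Symbols are those of the files. Positions and transcript lengths are from GENCODE lifted to GRCh37, and promoter sequences from RefSeq in GRCh38.p14, which held 8 of the 10 members. Python 3.11.15, numpy 2.4.6, pandas 2.3.3, scipy 1.17.1 and matplotlib 3.10.9 were used.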

Additional observations from a re-analysis of the deposited data

How the results depend on the processing

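Depth limited FOS, FOSB and EGR1, with 8 to 76 reads per group, and counting error is the only error the intervals hold. Of 292 recomputed member differences, 279 stayed inside the interval of the reported value and 13 moved outside it, none with a reversed direction among those whose interval lay off 0. TMM or median-of-ratios scaling moved the median of all genes by at most 0.032. Some members moved more: with TMM scaling, BenSer against untreated went from -0.093 to -0.046 for FOSL1 and from -0.052 to -0.005 for IER3.

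Gene counts below are higher then lower, in the order GPNA against untreated, BenSer against untreated and BenSer against GPNA. The reported counts were 64 and 12, 371 and 300, and 201 and 155. A pseudocount of 0.1 gave 879 and 652, 1205 and 1397, and 930 and 1243. A pseudocount of 0.5 gave 155 and 77, 520 and 492, and 338 and 317. A threshold of 25% in place of 1.5-fold gave 539 and 515, 1396 and 1961, and 1308 and 1349. A 2-fold threshold gave 8 and 1, 83 and 9, and 20 and 10. Leaving out 1 library gave 74 to 90 and 23 to 27, 376 to 412 and 320 to 349, and 212 to 227 and 176 to 190. Leaving out any 1 of the 4 libraries raised the lower GPNA count by over 1.5 times.

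Tests with columns as 2 samples compare libraries, at an adjusted p under 0.05. They scaled reads by library totals alone, without TMM or median-of-ratios factors. limma on pairs of groups gave 2 and 0, 1836 and 2657, and 1824 and 1827; at an unadjusted p under 0.05 the first were 1658 and 2746. limma fitted on all 3 groups, chosen after seeing the data, gave 243 and 302, 2163 and 3115, and 2057 and 2120. edgeR gave 946 and 2318, 2821 and 3992, and 3260 and 3108. With a replicate block it gave 980 and 2386, 2558 and 3637, and 3323 and 3153, and the same member counts as without. The labels give no pairing, and deviations of same-numbered columns correlated at 0.043 to 0.066 over 7924 genes.

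No member was past 1.5-fold as reported. With BenSer against untreated, 1 was higher with a pseudocount of 0.1 or 0.5 (FOS) and with TMM or median-of-ratios scaling (JUNB), and 0 to 1 without 1 library. The threshold of 25% gave 2 higher (JUNB and FOS) and 1 lower (JUN). For BenSer against GPNA, 2 were higher with a pseudocount of 0.1 (FOS and EGR1), and the threshold of 25% gave 3 higher and 1 lower. limma on pairs of groups called 2 members higher and 1 lower with BenSer, and 4 and 1 for BenSer against GPNA. limma on all groups called 1 lower with GPNA, 3 higher and 1 lower with BenSer, and 3 and 1 for BenSer against GPNA. edgeR, with or without the block, called 3 lower with GPNA, 3 higher and 2 lower with BenSer, and 4 and 1 for BenSer against GPNA.

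Members with an interval below 0 for BenSer against untreated fell from 4 to 2 with either scaling, and were 2 to 3 without 1 library (2 without either BenSer replicate); those above 0 were 2 to 3. With GPNA the counts without 1 library were 0 to 1 above (2 as reported) and 3 to 4 below, and for BenSer against GPNA 4 to 6 above and 1 to 3 below (3 without GPNA replicate 1). The cause was not tested.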

Other observations

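In the GPNA columns, 20 of 245 protein-coding genes whose canonical transcript has 1 exon stood apart between columns 1 and 2 (8.16%, exact binomial p under 0.05), beside 4.56% of 12534 genes with more exons. The untreated columns had 3.81% and 4.84%, and the BenSer columns 3.89% and 4.51%. JUN, JUNB and JUND have 1 exon. The difference between these shares was not tested.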
